A study of Mus musculus with 26 samples.

Results

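The mir-26 family was followed across all small RNA libraries of the series. Its members are mmu-mir-26a-1, mmu-mir-26a-2 and mmu-mir-26b (below without the species prefix), chosen by name among the miRBase entries of the count table, and they are 3 of 1054 miRNA entries and of 1360 entries in all. All 3 members passed the filter on low counts, as did 463 miRNA entries in total.

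The series asked whether miRNAs of the dorsal (dHC) and ventral (vHC) hippocampus change after a brief stressor. The mice were male C57BL/6J of 2 to 3 months. Stressed mice were forced to swim for 6 min in water of 18°C and their tissue was taken 45 mins after the swim began, while control mice did not swim. Tissue of both hemispheres was used, and each library is from RNA of a whole hippocampal region with all its cell types. Control vHC had 8 libraries and each of the other groups (swim vHC, control dHC, swim dHC) had 6, spread over 3 processing blocks of 10, 8 and 8 libraries. Each block held 2 libraries of every group, except block 1 with 4 of control vHC. Libraries are named here by group and by the number in their label. The labels do not say which libraries came from the same mouse, so the p-values measure the spread between libraries.

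miRNAs are cut from hairpin precursors, and the mature strand pairs with mRNAs through its seed, bases 2 to 8. Members of the mir-26 family share a seed, and their precursors lie in introns of the genes of the small C-terminal domain phosphatases Ctdspl, Ctdsp2 and Ctdsp1. These phosphatases are cofactors of REST, a repressor of neuronal genes, and in neural tissue miR-26 is known as part of a circuit in which it targets the phosphatases encoded by its own host genes.

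The mature sequences are shown because the members differ so little that the base changes decide which reads can be told apart. They are from RefSeq for GRCm38.p6, written 5′ to 3′ with the seed in capitals, and all 3 members were found there.
miR-26a-5p: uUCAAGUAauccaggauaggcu
miR-26b-5p: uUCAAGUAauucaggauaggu
miR-26a-1-3p: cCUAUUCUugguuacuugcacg
miR-26a-2-3p: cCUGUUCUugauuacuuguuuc
miR-26b-3p: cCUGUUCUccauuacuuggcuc
The strand miR-26a-5p, of 22 bases, is identical from mir-26a-1 and mir-26a-2. Against it, miR-26b-5p has 21 bases and differs by C11U and C21U, counted from the 5′ end with the base of miR-26a first. The seed UCAAGUA was held by 2 of 1679 mature mouse miRNA names, these 2. The 3p strands differ more, by 6 substitutions between the mir-26a copies (A4G, G11A, C19U, A20U, C21U and G22C), and A4G falls inside the seed. From miR-26a-2-3p to miR-26b-3p there were 4 substitutions, all outside the seed (U9C, G10C, U19G and U20C).

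In the GENCODE vM21 annotation of GRCm38 each precursor lies on the plus strand, as does its host gene. Mir26a-1 lies at chr9:119031796-119031885, in intron 5 of the 8-exon protein-coding transcript of Ctdspl. Mir26a-2 lies at chr10:126995530-126995613, in intron 5 of the 8-exon transcript of Ctdsp2, and it overlaps an exon edge in 2 other transcripts of that gene. Mir26b lies at chr1:74394310-74394394, in intron 4 of the 7-exon transcript of Ctdsp1.

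Total miRNA counts ran from 465387 to 4819724 per library. The lowest belonged to control dHC replicate 24, and the next lowest, 1357739, to swim dHC replicate 22. In control dHC replicate 24, miRNAs took 92.7% and rRNA 4.26% of the counts, both inside the ranges of the other libraries (88.3% to 92.9% and 3.48% to 7.03%). Results that rest on this library are given with and without it. Neuronal marker miRNAs (mir-124, mir-9 and mir-128, 8 entries) made up 17.5% to 24.6% of miRNA counts, and none of the 8 was at 0 in all libraries.

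Both mir-26a entries were among the most abundant miRNAs in hippocampus. By mean normalized CPM (the count relative to library size, scaled by TMM, which corrects for differences in composition between libraries), mir-26a-2 ranked 4th, mir-26a-1 5th and mir-26b 31st of 463. Together the mir-26a copies took 4.67% to 8.32% of all miRNA counts, and mir-26b 0.705% to 1.32%. Mir-26a thus exceeded mir-26b in all 26 libraries, by 4.44-fold to 9.51-fold. Whether a read shared by the copies was counted once or for each copy is not described in the sources used here, and the levels of mir-26a rest on the sum. A single copy took 2.34% to 4.16% of miRNA counts and was 2.22-fold to 4.76-fold above mir-26b. No correction for length was made. The mature 5p strands are of nearly equal length, but the counts are not split by strand.

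The copies could not be told apart as separate sources. The count of mir-26a-2 was above that of mir-26a-1 in all 26 libraries, but only by 14 to 234.5 counts, or 0.0520% to 0.238%. The gap was positive in every group and small against the counts themselves. Of 181 pairs of precursor copies from 37 miRNAs, 134 had a mean absolute log2 ratio under 0.01, and the mir-26a pair, at 0.0018, ranked 121 from the closest. Because the main strand is shared, the near-equal counts give the level of miR-26a and not that of either gene, and the calls on the 2 copies below are a single observation.

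The main question was whether the swim changed the family. In vHC, mir-26a-1 had a lowest, median and highest normalized CPM of 25416, 26563 and 33491 in control mice and of 23066, 25587 and 31426 after the swim. In vHC, mir-26b had 7670, 10119 and 13513 in control mice and 8045, 9577 and 13353 after the swim. For mir-26a-1, 3 of 6 swim libraries lay below all control libraries and the others inside their range, while for mir-26b all 6 lay inside it.

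In dHC, mir-26a-1 had 22673, 26940 and 55536 in control mice and 20833, 27631 and 37623 after the swim. The control range was stretched by the highest library, replicate 24, above a next value of 33224. In dHC, mir-26b had 8733, 10783 and 11681 in control mice and 7605, 9010 and 12908 after the swim. The swim libraries of mir-26b lay on both sides of the control range. Values of mir-26a-2 followed those of mir-26a-1, with medians of 26597, 25615, 26983 and 27670 in control vHC, swim vHC, control dHC and swim dHC.

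**Figure D1:**
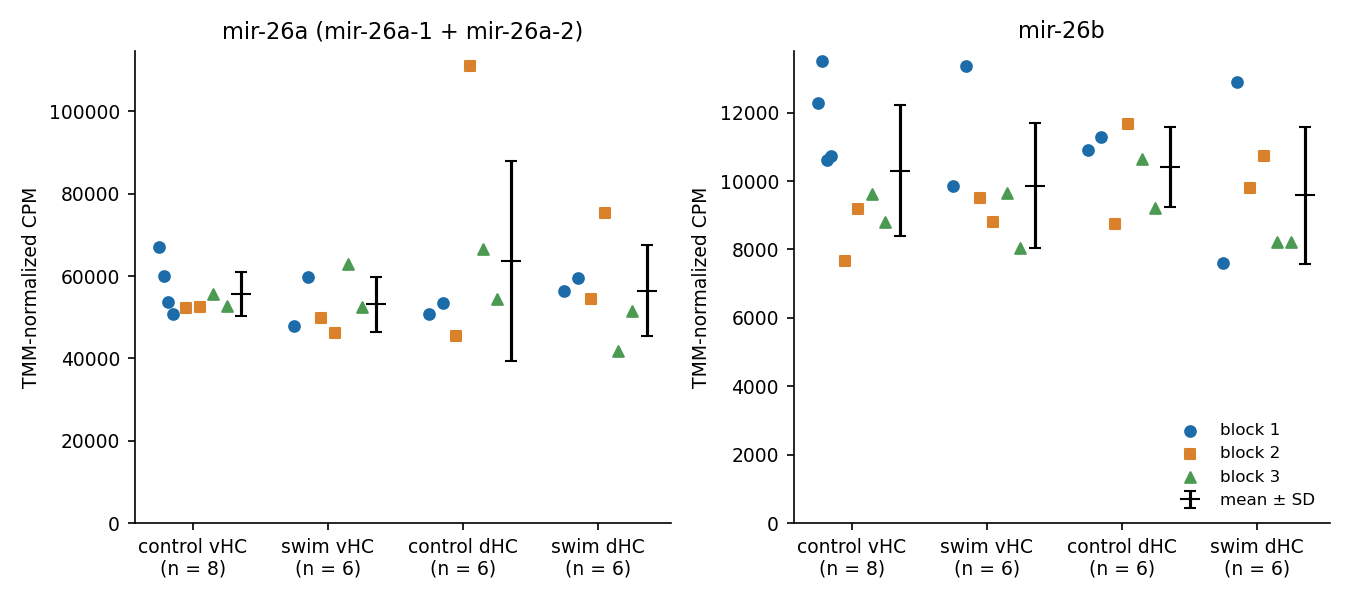
TMM-normalized CPM (vertical axes, from 0) of mir-26a, copies summed, and of mir-26b in each of the 26 libraries, by group. Point shape and colour give the processing block and black bars the mean ± SD of the group. All 4 groups overlap, the highest mir-26a point is control dHC replicate 24, and the mir-26b points of block 1 lie mostly above those of blocks 2 and 3.

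No member was called for the swim. With edgeR's quasi-likelihood test, 0 of 3 members and 0 of 463 entries (0%) passed an adjusted p of 0.05 when both stress coefficients were dropped, and 16 entries had an unadjusted p under 0.05. DESeq2 also called 0 members. In vHC, the log2 change of mir-26b was −0.019 (SE 0.085, 95% confidence interval −0.19 to 0.16, edgeR adjusted p = 0.974) and that of mir-26a-1 was −0.0011 (SE 0.11, interval −0.22 to 0.22). Among all entries there were 0 calls in vHC (0%), and 34 entries had an unadjusted p under 0.05. In dHC, the log2 change was −0.076 for mir-26b (SE 0.091, interval −0.26 to 0.11) and −0.084 for mir-26a-1 (SE 0.12, interval −0.32 to 0.16, edgeR adjusted p = 0.999). Here too 0 of 463 entries were called (0%), with 17 at an unadjusted p under 0.05. Over both regions the intervals of the 3 members ran no lower than −0.32 and no higher than 0.22. Without control dHC replicate 24 the dHC value of mir-26a-1 was 0.043, so its sign rested on this library.

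The swim effect was not shown to differ between regions. The interaction of region and swim was −0.083 for mir-26a-1 (SE 0.16) and −0.057 for mir-26b (SE 0.12), with an edgeR adjusted p of 0.954 for all 3 members. Across entries 0 of 463 were called for the interaction (0%), and 23 had an unadjusted p under 0.05. Within blocks, the mean swim difference of mir-26b in vHC was −0.032, 0.13 and −0.062 on the log2 scale in blocks 1, 2 and 3. That of mir-26a in dHC was 0.15, −0.15 and −0.37. Neither kept a sign over the 3 blocks.

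The comparison of regions asked whether the family differs between dHC and vHC. In control mice the log2 difference of dHC over vHC was 0.18 for mir-26a-1 (SE 0.15, edgeR adjusted p = 0.402) and 0.076 for mir-26b (SE 0.11, edgeR adjusted p = 0.644). None of the 3 members was called, against 104 of 463 entries (22.5%), of which 36 were higher and 68 lower in dHC. Without control dHC replicate 24 the value of mir-26a-1 was −0.014. After the swim the log2 difference was 0.075 for mir-26a-1 (SE 0.16) and −0.036 for mir-26b (SE 0.12). Again none of the 3 was called, against 94 entries (20.3%). In bulk tissue, fewer cells of a type and less RNA per cell cannot be told apart.

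The region result turned on the covariates. The study's model corrects for 2 surrogate variables, which sva estimates from the counts as unlabelled variation, and such a model was used above for the swim. The study does not name the null model of that step, and a null model of region was chosen here. Region explained 91.1% of the second surrogate variable, so block was used in its place for the region test. With the surrogate variables, the fitted log2 difference in control mice became 1.41 for mir-26a-1 (SE 0.31, edgeR adjusted p = 0.00246) and 1.27 for mir-26b (SE 0.25, edgeR adjusted p = 0.00135). All 3 members were then called, beside 78 of 463 entries in all (16.8%). After the swim the values were 1.33 for mir-26a-1 and 1.21 for mir-26b, again with all 3 called, beside 59 entries (12.7%). The fold of 2.67 that the first value stands for is not seen in the libraries themselves, since the median normalized CPM of mir-26a-1 was 26563 in control vHC and 26940 in control dHC. With 2 surrogate variables estimated against a null model of an intercept alone, none of the 3 members was called (mir-26a-1 0.21, edgeR adjusted p = 0.271, and mir-26b 0.0065, edgeR adjusted p = 0.980, in control mice), against 95 of 463 entries (20.5%), and after the swim against 99 (21.4%). With neither block nor surrogate variables none was called in either condition, against 67 of 463 entries in control mice and 56 of 463 after the swim.

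**Figure D2:**
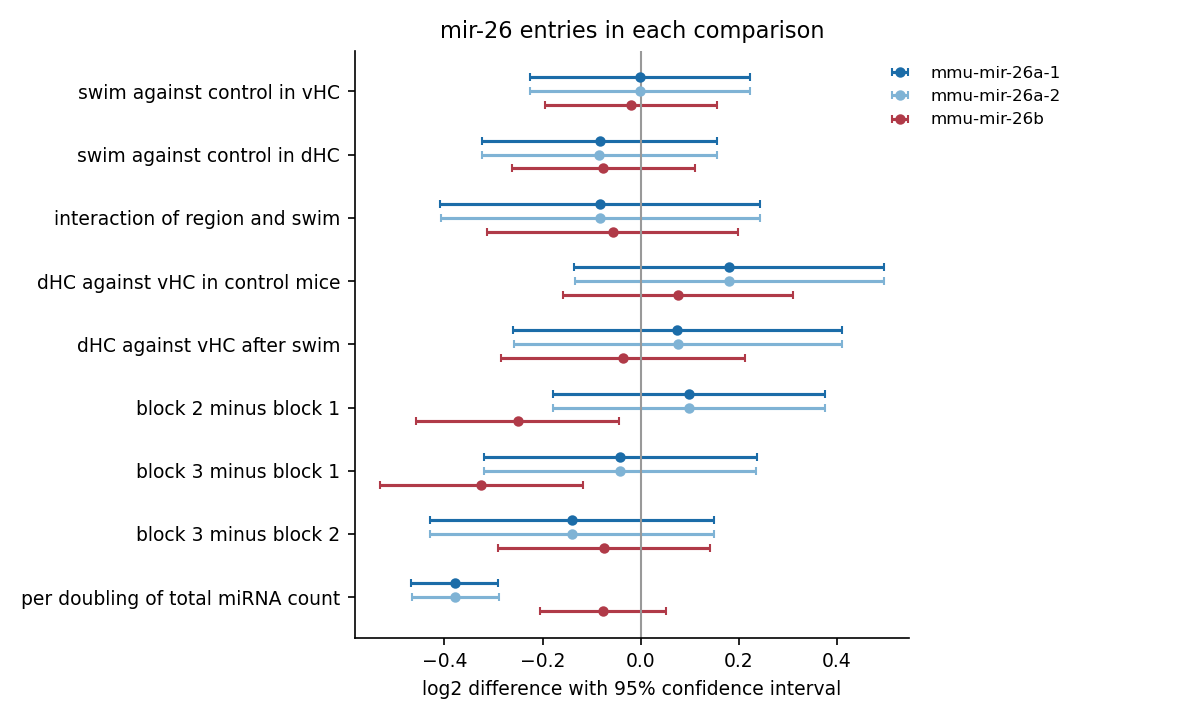
Fitted log2 differences (horizontal axis) of the 3 mir-26 entries in 9 comparisons, with 95% confidence intervals from edgeR. The intervals of the swim and region comparisons all hold 0, those of mir-26b lie below 0 for blocks 2 and 3 against block 1, and those of both mir-26a copies lie below 0 for a doubling of the total miRNA count.

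The processing blocks were compared because the labels give them as a technical division of the libraries. The normalized CPM of mir-26b had a lowest, median and highest of 7605, 11101 and 13513 in block 1, of 7670, 9342 and 11681 in block 2 and of 8045, 9004 and 10645 in block 3. Block 1 was higher in the median, but its lowest library, swim dHC replicate 6, was below every library of the other blocks. Mir-26a, copies summed, had medians of 54954, 52398 and 53516 in blocks 1, 2 and 3. Its ranges overlapped between blocks.

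Mir-26b was lower in blocks 2 and 3 and mir-26a gave no call. The log2 difference of mir-26b from block 1 was −0.25 in block 2 (SE 0.10, edgeR adjusted p = 0.0402) and −0.33 in block 3 (SE 0.10, edgeR adjusted p = 0.0102), and over the 3 blocks together the edgeR adjusted p was 0.0182. Of 463 entries, 246 (53.1%) were called over the 3 blocks, 243 (52.5%) for block 2 and 241 (52.1%) for block 3 against block 1, so 1 called member of 3 is not above the background. The joint edgeR adjusted p was 0.653 for mir-26a-1. Between blocks 2 and 3, 0 of 463 entries were called (0%), 51 had an unadjusted p under 0.05, and mir-26b differed by −0.074 (SE 0.11). The joint call of mir-26b was lost under TMMwsp scaling, DESeq2 size factors, DESeq2, unrounded counts and summed copies, where the difference of block 2 lay between −0.22 and −0.17 and that of block 3 between −0.30 and −0.24. Block 3 against block 1 alone kept its call with unrounded counts (edgeR adjusted p = 0.0413) and summed copies (edgeR adjusted p = 0.0303), and block 2 kept none in these 5 settings. When each library was left out in turn, block 2 was called in 5 of 26 fits (without control vHC replicates 13 and 25, swim vHC replicate 5 and swim dHC replicates 6 and 28), with an edgeR adjusted p of up to 0.331. Block 3 was called in 20 of 26, all but those without control vHC replicate 7, control dHC replicates 24 and 32, swim vHC replicate 29 and swim dHC replicates 16 and 30. The joint call was lost in 15 of 26. These were control vHC replicates 1, 7, 9, 17 and 23, control dHC replicates 8, 14, 24, 26 and 32, swim vHC replicates 27 and 29 and swim dHC replicates 16, 20 and 30.

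Shares of rRNA and of cell type markers are given beside these blocks. The median share of rRNA was 4.13%, 5.49% and 6.48% in blocks 1, 2 and 3. The median summed share of the 3 oligodendrocyte miRNAs was 0.385%, 0.523% and 0.489%, with ranges of 0.337% to 0.643%, 0.412% to 0.739% and 0.404% to 0.696%. For the 3 endothelial and mural miRNAs the medians were 2.20%, 2.12% and 2.53%, for the 6 of choroid plexus 0.260%, 0.287% and 0.250%, for the 3 of microglia and leukocytes 0.101%, 0.0859% and 0.0912%, and for the 4 erythroid 0.0847%, 0.0826% and 0.0782%. The ranges of these lists overlapped between blocks, and none of the markers was at 0 in all libraries. Against block 1, entries called in edgeR numbered 1 of 3 oligodendrocyte, 0 of 3 endothelial and mural, 2 of 6 choroid plexus, 1 of 3 microglia and leukocyte and 3 of 4 erythroid in block 2, and 1, 1, 2, 1 and 1 of the same lists in block 3. In both blocks the oligodendrocyte call was higher, the microglia and leukocyte call lower, and the choroid plexus calls 1 higher and 1 lower. The erythroid calls were 2 higher and 1 lower in block 2 and 1 lower in block 3. The endothelial and mural call in block 3 was higher. Of the 8 neuronal entries 3, the copies of mir-124, were called lower and 0 higher in each block. Beside these lists, 52.5% of all 463 entries were called in block 2 and 52.1% in block 3. Their median summed shares were 20.4%, 19.9% and 19.7% in blocks 1, 2 and 3. The part of these shares in the lower mir-26b was not tested.

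Mir-26a was lower in the deeper libraries, a relation that was looked at with earlier results of these data known and that other abundant miRNAs shared. In the library of lowest total, control dHC replicate 24, mir-26a had a normalized CPM of 111112, and in swim dHC replicate 22, the next lowest, it had 75272. In the 2 libraries of highest total, swim dHC replicate 28 and control dHC replicate 18, it had 41709 and 45400. For mir-26b the same 4 libraries had 11681, 10737, 8228 and 8733. The fall from shallow to deep libraries was therefore far larger for mir-26a than for mir-26b.

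Across the 26 libraries, log2 normalized CPM of mir-26a had a Pearson's r of −0.884 with the log2 total miRNA count (permutation p = 1e-05, the smallest possible, adjusted p = 2e-05 over 4 relations) and a Spearman's rho of −0.681 (permutation p = 0.00016, adjusted p = 0.00036). As a plain share of miRNA counts, without TMM, its r was −0.720 (permutation p = 0.00037) but its rho was −0.333 (permutation p = 0.0989), which did not pass, and its slope per doubling was −0.20 in place of −0.38. For mir-26b, r was −0.140 (permutation p = 0.505, adjusted p = 0.505) and rho −0.0386 (permutation p = 0.851, adjusted p = 0.851). As a plain share, mir-26b had an r of 0.341 (permutation p = 0.0887) and a rho of 0.415 (permutation p = 0.0354, adjusted p = 0.0472). By rank, the share of mir-26b thus passed as a rise with depth. Without the 2 libraries farthest from the median depth, control dHC replicate 24 and swim dHC replicate 22, r was −0.685 for mir-26a (permutation p = 0.00028) and 0.0618 for mir-26b (permutation p = 0.773). Within blocks 1, 2 and 3, r of mir-26a was −0.410, −0.961 and −0.867, with permutation p of 0.240, 0.00232 and 0.00515. Its rho within these blocks was −0.358, −0.714 and −0.738 (permutation p = 0.312, 0.0587 and 0.0471, adjusted p = 0.416, 0.0783 and 0.0942). Within block 1 the relation of mir-26a therefore did not pass by r, and by rho it passed in no block after adjustment. For mir-26b the values within blocks were 0.485, −0.648 and −0.521, which did not share a sign.

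**Figure D3:**
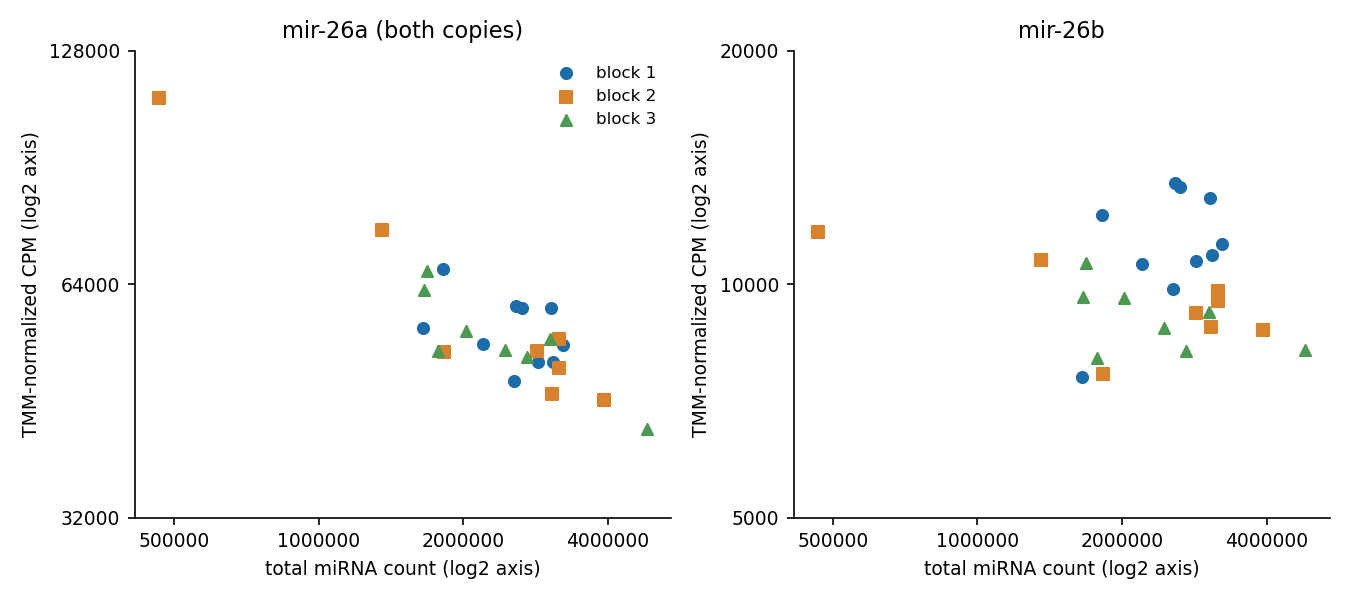
TMM-normalized CPM (vertical, log2 axes of equal span) of mir-26a, copies summed, and of mir-26b against the total miRNA count (horizontal, log2 axis) of the 26 libraries, with shape and colour by block. Mir-26a falls from 111112 in the shallowest library to 41709 in the deepest, while mir-26b goes from 11681 to 8228.

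The same was seen with depth as a term in edgeR beside region, stress, their interaction and block. For each doubling of the total miRNA count, mir-26a-1 fell by 0.38 on the log2 scale (SE 0.043, edgeR adjusted p = 1.52e-07), or to 0.769 of its level, and mir-26a-2 by as much. Mir-26b gave −0.077 (SE 0.063, 95% confidence interval −0.21 to 0.052, edgeR adjusted p = 0.470). Of 463 entries 34 were called (7.34%), 8 higher and 26 lower with depth, and the mir-26a copies had the 4th and 5th smallest p and the 7th and 8th lowest slopes. Of the 20 most abundant entries, 13 were called lower with depth and all 20 had a negative value (median −0.24). These entries include both mir-26a copies and count precursor copies of a miRNA separately. The fall was not particular to mir-26a, since the 3 copies of mir-9 were also called lower. Without control dHC replicate 24 mir-26a-1 fell by 0.42 (edgeR adjusted p = 0.00433, with 5.97% of entries called), and over all 26 fits that left out a library its value lay between −0.42 and −0.34. Scaling set the size: with no scaling factor mir-26a-1 gave −0.20 (edgeR adjusted p = 0.00121, 44.7% of entries called, 199 higher and 8 lower) and mir-26b turned to 0.10. The median of all entries was then 0.23, against 0.047 under TMM. Relative to that median, mir-26a-1 stayed at −0.426 under TMM and −0.424 with no scaling factor, and mir-26b at −0.124 and −0.122.

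Cell type markers are given beside the depth of the libraries. The summed share of the neuronal markers had a median of 20.9% in the 6 libraries of lowest total and of 19.1% in the 6 of highest, and 5 of its 8 entries, which are copies of 3 abundant miRNAs, were called lower with depth. The share of oligodendrocyte miRNAs was 0.542% and 0.587%, that of choroid plexus 0.216% and 0.344%, that of endothelial and mural miRNAs 2.52% and 2.21%, that of microglia and leukocytes 0.0808% and 0.107%, and that of erythroid miRNAs 0.0675% and 0.0905%. With depth, 1 of the 3 endothelial and mural entries was called, lower, and 0 of the entries of the other 4 lists. Of all 463 entries, 7.34% were called with depth. The part of the markers in the relation of mir-26a with depth was not tested.

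The ratio of mir-26b to mir-26a within a library depends on no scaling between libraries. Its log2 value ran from −3.25 in control dHC replicate 24 to −2.15 in control vHC replicate 7. Counting error was far smaller than this span, with an SE of 0.0075 to 0.024 per library. Group means were −2.45 ± 0.20 (SD, n = 8) in control vHC, −2.44 ± 0.22 (SD, n = 6) in swim vHC, −2.55 ± 0.38 (SD, n = 6) in control dHC and −2.56 ± 0.27 (SD, n = 6) in swim dHC. These means lay within a group SD of each other. Without control dHC replicate 24 the control dHC mean was −2.41 ± 0.19 (SD, n = 5).

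By two-sided exact permutation tests, the swim changed the mean log2 ratio by 0.0087 in vHC (p = 0.937) and by −0.013 in dHC (p = 0.957). The difference of dHC from vHC was −0.10 in control mice (exact p = 0.575) and −0.12 after the swim (exact p = 0.392). Without control dHC replicate 24 that in control mice was 0.039. By block, the ratio averaged −2.32 ± 0.22 (SD, n = 10), −2.62 ± 0.31 (SD, n = 8) and −2.59 ± 0.12 (SD, n = 8) in blocks 1, 2 and 3. Blocks 2 and 3 differed from block 1 by −0.30 (exact p = 0.0211, adjusted p = 0.148 over 14 comparisons) and by −0.27 (exact p = 0.00745, adjusted p = 0.104). Both missed the threshold after adjustment. Without swim dHC replicate 6, the lowest ratio of block 1 at −2.89, they were −0.37 and −0.34 and both passed (exact permutation test, adjusted p = 0.0023 for each). In the other 25 of 26 fits that left out a library, no comparison of this ratio passed. Without control dHC replicate 24 the difference of block 2 from block 1 was −0.22.

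The ratio rose with depth in every block. Over the 26 libraries, r was 0.800 (permutation p = 1e-05, the smallest possible, adjusted p = 2e-05) and rho 0.655 (permutation p = 0.0003, adjusted p = 0.0004), with a slope of 0.32 on the log2 scale per doubling. Without the 2 libraries farthest from the median depth, r was 0.619 (permutation p = 0.00129). Within blocks 1, 2 and 3, r was 0.824, 0.986 and 0.854, with permutation p of 0.0021, 0.00012 and 0.0102. The rho of this ratio within these blocks was 0.648, 0.905 and 0.667 (permutation p = 0.0479, 0.00419 and 0.0829, adjusted p = 0.192, 0.0153 and 0.111). By rho the relation therefore passed after adjustment in block 2 only. The ratio of mir-26a-1 to mir-26a-2 had an r of −0.625 with depth (permutation p = 0.00073, rho −0.675 with permutation p = 0.00018), though its slope was only −0.00063 per doubling.

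**Figure D4:**
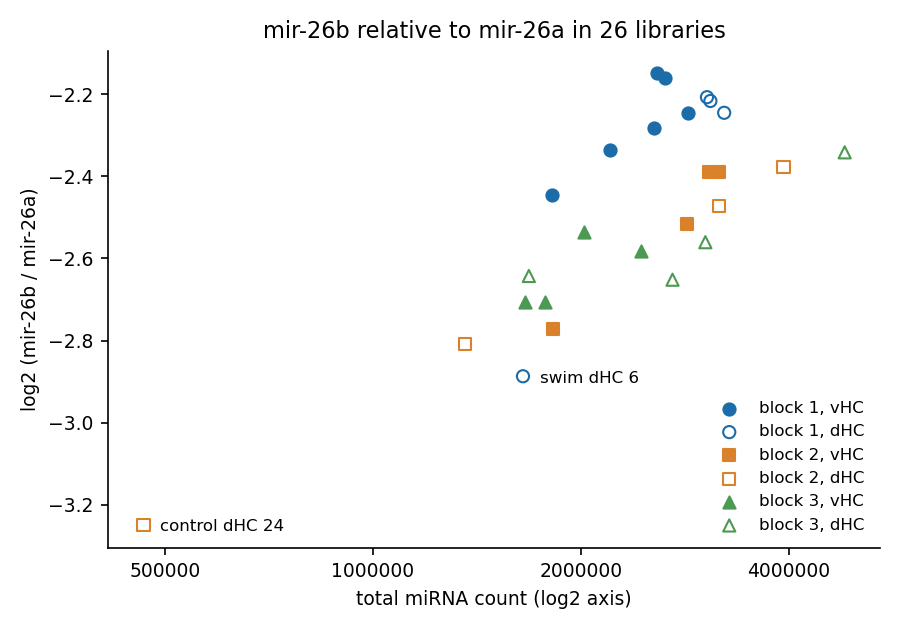
Log2 ratio of mir-26b to mir-26a (vertical axis) against the total miRNA count (horizontal, log2 axis), with shape and colour by block and filled points for vHC, open points for dHC. The ratio rises with depth within each block, from −3.25 in control dHC replicate 24, and most points of block 1 lie above those of the other blocks at like depth.

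The miRNAs most like each member were sought by the SD over the 26 libraries of their log2 ratio to it. Closest to mir-26a were mir-9-2 (SD 0.137), let-7g (0.174), let-7f-1 (0.183), let-7a-2 (0.218) and let-7j (0.222), against a median SD of 0.527 over 460 entries. The SD of mir-26b against mir-26a was 0.261, and 15 of 395 miRNAs were closer to mir-26a than mir-26b was. Closest to mir-26b were mir-98 (SD 0.179), mir-132 (0.183), mir-181a-2 (0.186), mir-1957a (0.186) and mir-181d (0.187), against a median of 0.487. Here 14 miRNAs were closer than mir-26a. The 26 libraries share their depths and blocks across all miRNAs, so these are descriptions of the libraries, and mir-1957a was rare at 0.00603% of miRNA counts.

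Because the host gene phosphatases act with REST, 8 entries linked to that repressor were placed beside the family: the neuronal miRNAs mir-9 and mir-124 with 3 copies each, and mir-132 and mir-212, which are induced by neuronal activity. None of the 8 was called for the swim or between regions. Of all entries, 0% were called for the swim, and between regions 22.5% in control mice and 20.3% after the swim. Over the 3 blocks 4 of 8 were called, no more than the 53.1% of all entries, and 3 of the 4 are copies of mir-124. The mir-124 copies were lower than in block 1, by a log2 difference of −0.33 in block 2 (mir-124-1, edgeR adjusted p = 0.00814) and −0.37 in block 3 (edgeR adjusted p = 0.00435), and mir-212 was higher in block 2, by 0.24. With depth, where 7.34% of all entries were called, the 3 copies of mir-9 were called lower, by −0.42 per doubling for mir-9-1 (SE 0.036, edgeR adjusted p = 6.09e-10). Mir-124-1 gave −0.14 (SE 0.059, edgeR adjusted p = 0.127), mir-132 −0.10 and mir-212 −0.0018. The list's median was −0.14 per doubling, beside 0.047 over all entries tested.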

How the data were processed

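Small RNA of mouse dHC and vHC was read from 26 libraries, grouped by the labels into 4 groups and 3 blocks, with 0 columns left unmatched. Adapters had been removed by the authors with cutadapt, reads sharing sequence and molecular tag had been merged, and RNAs had been quantified with Sports. The values the authors deposited are expected counts, not normalized, so a count stands for a distinct molecule as far as tags resolve it. A share of 29.5% was not whole. Whole counts had been assumed, so values were rounded. The aligner settings are not given in the sources used here, GRCm38 is named in the submitters' processing notes, and the counting of shared reads between copies is not described.

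Entries were filtered by filterByExpr (minimum count 10, total 15), scaled by TMM and tested in R 4.3.3 with edgeR 4.0.16 and, for the swim, 2 surrogate variables from sva 3.50.0. Region, block and depth tests used block instead. DESeq2 1.42.0 was an alternative. Adjustment was by Benjamini-Hochberg at 0.05 over 463 entries. Correlations used 100000 permutations. Scripts were tested on simulated data. Ratios and correlations were computed in Python 3.11.15, and plots made in matplotlib 3.10.9. Members and lists were chosen with earlier results of these data known. Named miRNAs were the 3 members, the 5 most like mir-26a and mir-26b each (log2 ratios of counts + 0.5), and the REST list. Depth as a term in edgeR, its scalings, and leaving out libraries from it were added after seeing the data. Total miRNA counts were 465387 to 4819724, and intervals for counting error cover that error only.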

Additional observations from a re-analysis of the deposited data

Results flagged for a closer look

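In control dHC, replicate 24 stood far from the other libraries of its group for both mir-26a copies, with a normalized CPM of 55536 for mir-26a-1 and 55576 for mir-26a-2. The next highest libraries had 33224 and 33262, and the gap took 0.679 of the group's range for each copy, above the 95% limit of Dixon's test for 6 libraries. This library had the lowest total of the series, 465387. In swim vHC, replicate 15 stood apart for mir-26b at 13353, above a next value of 9865, with a gap of 0.657 of the range. It belonged to block 1. Chance alone marks about 1 in 20 groups, and 20 groups were examined.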

How the results depend on the processing

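No paired analysis was run, because each library number in the labels belongs to a single library and no label ties libraries to a mouse. If dHC and vHC libraries came from the same mice, the region and interaction tests ignored that pairing.

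No member was called for the swim under any alternative run. Region calls arose with 2 surrogate variables, estimated against the null model of region chosen here, in place of block. They called 3 members in each condition, with mir-26b at 1.21 after the swim. None arose with those of an intercept-only null. The joint block call of mir-26b was lost (0 members called) with TMMwsp, DESeq2 size factors, DESeq2, unrounded counts and summed copies, and leaving out a library gave 0 to 1. Among relations with depth, 1 of 4 passed by Pearson's r within block 1, against 3 over all libraries. Ratio calls were 0 to 2 when a library was left out. The causes were not tested.

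Signs turned for values near 0. The swim change in vHC of mir-26a-1, mir-26a-2 and mir-26b was 0.047, 0.046 and 0.027 with TMMwsp, 0.0251, 0.0247 and 0.010 with DESeq2 size factors and with DESeq2, and 0.0264, 0.0260 and 0.0086 with unrounded counts. With the whole table as library size, mir-26a-1 was 0.0024 and mir-26a-2 0.0019, and with copies summed mir-26a was 0.021 and mir-26b after the swim, between regions, 0.00086. Block 3 minus block 1 was 0.044 and 0.044 for the mir-26a copies with TMMwsp, 0.024 and 0.024 with DESeq2 or its size factors, and 0.011 and 0.011 with unrounded counts. With depth as covariate, the interaction was 0.0030 and 0.0028 and block 2 minus block 1 −0.043 and −0.043 for these copies. With medians, the ratio of mir-26b to mir-26a was 0.012 between regions in control mice and −0.12 for block 3 minus block 2, and the copy ratio was 1.18e-05 for block 2 minus block 1. Against depth, r of mir-26b was 0.341 as a share of counts, 0.485 within block 1 and 0.0618 without the 2 farthest libraries, and its change per doubling was 0.10 with no scaling factor.

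Leaving out a library gave these ranges. In vHC the swim change was −0.065 to 0.074 for mir-26a-1, −0.065 to 0.074 for mir-26a-2 and −0.079 to 0.098 for mir-26b. In dHC it was −0.19 to 0.043 for mir-26a-1 and −0.19 to 0.042 for mir-26a-2. The interaction was −0.22 to 0.019 for both and −0.18 to 0.018 for mir-26b. Between regions, the mir-26a copies gave −0.014 to 0.27 and −0.013 to 0.27 in control mice, −0.032 to 0.15 and −0.031 to 0.15 after the swim, and mir-26b −0.12 to 0.058 after the swim. Block 3 minus block 1 was −0.064 to 0.042, and block 3 minus block 2 −0.21 to 0.021, for both copies. The ratio of mir-26b to mir-26a gave −0.047 to 0.062 for the swim in vHC, −0.15 to 0.054 in dHC, −0.17 to 0.039 between regions in control mice and −0.058 to 0.066 for block 3 minus block 2. The copy ratio gave −0.000226 to 0.00012 for block 2 minus block 1, −8.23e-05 to 0.00024 for block 3 minus block 1 and −5.94e-05 to 0.000336 for block 3 minus block 2. For mir-26b, r with depth was −0.206 to 0.0121.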

Other observations

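The expected counts carried fractions. In 22 of 26 libraries neither mir-26a-1 nor mir-26b was a multiple of 0.5 (tolerance 0.02), yet the difference of mir-26a-2 from mir-26a-1, and that of mir-26a-1 from mir-26b, was a multiple of 0.5 in all 26 libraries.

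Outside the 20 most abundant entries, 13 of the other 443 were called lower with depth and 8 higher, with a median of 0.053 per doubling. Both mir-26a copies belong to the 20 and mir-26b to the 443.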
